A study of Mus musculus with 23 samples.

Results

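The transcription factor NRF2, its inhibitor KEAP1 and 8 genes of antioxidant defence were followed in brown adipose tissue (BAT) of mice with and without the mitochondrial calcium uniporter. The 10 genes were listed by name, by a rule that uses none of their values but was set with earlier results of these data known: Nfe2l2 and Keap1, the NRF2 target genes Hmox1, Nqo1, Gclc, Gclm, Txnrd1 and Srxn1, and the mitochondrial antioxidant genes Sod2 and Prdx3. All 10 were found among the 14651 genes of the table of normalized counts. The mice were male C57BL/6 animals of 8 to 12 weeks in 4 groups. Control mice were kept at room temperature (RT, n = 6) or 4°C (n = 5), and BAT-Mcu-KO mice (knockout mice) likewise (n = 6 each). All animals carried loxP sites around exon 2 of both copies of Mcu (Mcu fl/fl), the gene of the channel's pore. BAT-Mcu-KO mice also carried a Cre recombinase driven by the promoter of Ucp1, a gene of brown adipocytes, so that deletion was directed to these cells and other cells of the depot could keep Mcu, and control mice had no such transgene. Exposure to 4°C lasted 6 h, with the mice housed singly, without bedding and, by the protocol, as a rule without food. Mice were otherwise housed in groups, and the feeding of the mice at RT was not stated. Cold therefore cannot be told apart from lack of food, single housing or lack of bedding in any comparison of temperature.

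NRF2, encoded by Nfe2l2, is a transcription factor that KEAP1 binds in the cytosol and hands to a ubiquitin ligase for destruction. Oxidants and electrophiles modify cysteines of KEAP1, NRF2 then escapes, enters the nucleus and, paired with a small MAF protein, binds antioxidant response elements (AREs) at genes that make glutathione, recycle thioredoxin and break down heme. Much of this control acts on the protein, which RNA-seq does not measure. Brown adipocytes are packed with mitochondria that burn fuel to make heat, and their matrix holds its own defence, with the superoxide dismutase SOD2 and the peroxidase PRDX3.

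On the mouse genome GRCm38 (GENCODE M21), Nfe2l2 lies at chr2:75675513-75704641 and Keap1 at chr9:21229730-21239361, both on the minus strand. Gclc lies at chr9:77754535-77794485 and Gclm at chr3:122245557-122270732, Txnrd1 at chr10:82833951-82897712 and Srxn1 at chr2:152105516-152111376, and Hmox1 at chr8:75093621-75100589, all on the plus strand. Nqo1 lies at chr8:107388225-107403206 on the minus strand, Sod2 at chr17:13006846-13040063 on the plus strand and Prdx3 at chr19:60864051-60874556 on the minus strand. Reads were counted within exons without regard to strand. Nfe2l2, Keap1, Gclm and Txnrd1 overlap other annotated genes, of which Gm17494, opposite to Gclm, was measured (mean normalized count 9.49). How reads in a shared stretch were assigned was not stated, so these members could have lost reads there or gained those of a neighbour. The overlaps are those of GENCODE M21, while reads were counted on GENCODE M7.

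ARE core letters were looked for in the promoters of the members, and those of the genes with a match that rose in cold are shown because they hold the core letters of the element to which NRF2 binds. RefSeq promoter windows of 300 bases (250 before to 50 after a start, assembly GRCm38.p6) were given for 8 of the members, in 10 windows. No window was given for Hmox1 or Gclc. The core was written as TGACNNNGC or TGAGNNNGC, where N is any base, on either strand. At least 1 of these was present in 27.79% of all 32851 windows and in 4 of the 10 windows of members, those of Nfe2l2, Srxn1, Gclm and Txnrd1. The stretches upstream of the start, cut short where they ran into an annotated exon, read as follows from 5′ to 3′ on the strand of the gene, with the matches in capitals.

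Srxn1 (chr2:152105274-152105515, plus strand): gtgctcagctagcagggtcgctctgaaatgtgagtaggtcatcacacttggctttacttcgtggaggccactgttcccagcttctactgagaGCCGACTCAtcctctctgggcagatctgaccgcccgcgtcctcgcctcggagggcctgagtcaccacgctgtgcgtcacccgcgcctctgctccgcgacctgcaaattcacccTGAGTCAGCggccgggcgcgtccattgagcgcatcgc

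Gclm (chr3:122245307-122245556, plus strand): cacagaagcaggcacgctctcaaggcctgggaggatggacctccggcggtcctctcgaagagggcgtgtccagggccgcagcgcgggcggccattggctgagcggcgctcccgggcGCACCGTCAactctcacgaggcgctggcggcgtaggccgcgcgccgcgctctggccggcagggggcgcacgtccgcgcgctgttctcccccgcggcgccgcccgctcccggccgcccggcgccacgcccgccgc

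Txnrd1 (chr10:82859009-82859178, plus strand, an internal start of the gene): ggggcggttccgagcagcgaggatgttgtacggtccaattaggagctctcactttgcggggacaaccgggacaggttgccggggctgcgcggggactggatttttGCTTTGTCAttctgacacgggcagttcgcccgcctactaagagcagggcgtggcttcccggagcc

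Srxn1 held a TGAGNNNGC match on the opposite strand that began 158 bases before the start and another on its own strand 45 bases before it. The latter contained TGAGTCA, the AP-1 site, which overlaps the ARE core there, and a further TGAGTCA stood 102 bases before the start. TGAGTCA was present in 5.2% of all windows and, among members, only in that of Srxn1. Gclm and Txnrd1 each held TGACNNNGC on the opposite strand, at 134 and 92 bases before the start, and Nfe2l2 held it on its own strand at 240 bases, in a stretch that overlaps an annotated exon and is not shown. Srxn1 held it too, on the opposite strand 29 bases into the transcript, beyond the stretch shown. TGACNNNGC alone was present in 12.39% and TGAGNNNGC in 17.65% of all windows. The cAMP response element TGACGTCA (1.79% of all windows) and TGATGNAA, the letters of an element bound by ATF4 (3.97%), were in 0 of the 10 member windows. A match is a description of letters, and binding was not measured here.

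The labels and tissue were checked first. The normalized count of Mcu was 110 ± 22.5 (SD, n = 6) in control and 35.1 ± 10.03 (n = 6) in knockout mice at RT, and 107 ± 26.8 (n = 5) and 33.9 ± 6.60 (n = 6) at 4°C, with no overlap between the genotypes at either temperature. Ucp1, which encodes the uncoupling protein of brown fat, rose with cold in both genotypes, by 1.37 and 1.47 on the log2 scale. The depth was 7129271 to 21006347 reads per mouse in the 22 mice for which reads could be counted back, and mitochondrial transcripts took up 23.1% to 38.1% of them. Markers of other cells were present in all groups, though the neutrophil marker S100a8 was at 0 in some mice and Vsig4, S100a9, Cd3e and Ms4a1 were not measured. The summed count of 6 skeletal muscle markers ran from 6.22 to 42697 over the mice, and 0 of these markers were called in any comparison by limma, while edgeR and DESeq2 each called 1 lower by cold in knockout mice. Of 8 macrophage markers measured, 3 rose with cold in control and 6 in knockout mice, and of 5 endothelial markers 3 rose in each genotype. Over all genes 22.3% rose in control and 21.4% in knockout mice. The 6 macrophage markers became 3 without knockout mouse 2 at RT or mouse 6 at 4°C. Of the fibroblast markers Dcn rose with cold in knockout mice (0.35, limma adjusted p = 0.0236), a call that some other settings did not give. The lymphocyte marker Cd79a fell there (-1.91, limma adjusted p = 0.00691) from a count of only 9.25. In whole tissue, fewer cells of a type and less RNA per cell cannot be told apart.

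At RT the members covered a wide range of levels. Per kb of exon, the mean normalized count in control mice was 4283 for Prdx3 and 1283 for Sod2, the matrix enzymes, and then 226 for Nfe2l2, 87.0 for Srxn1, 69.2 for Keap1, 47.6 for Hmox1, 43.3 for Txnrd1, 27.6 for Gclm, 21.0 for Gclc and 8.81 for Nqo1. Mice did not overlap between Prdx3, Sod2, Nfe2l2, Srxn1 and Keap1, nor between Txnrd1 and Gclm. The neighbours Keap1 and Hmox1, Hmox1 and Txnrd1, Gclm and Gclc, and Gclc and Nqo1 did overlap. In control mice at 4°C Hmox1 stood at 1009 per kb, above every other member but Prdx3 and Sod2, and its mice overlapped with those of Sod2. In knockout mice at 4°C it stood at 419 per kb and overlapped with Nfe2l2 (285). These lengths count every annotated exon of a gene, and Sod2 has 10008 bases of them, so its level per kb is low for a gene read mostly from a shorter transcript.

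Cold raised the transcripts of 4 members in control mice, Hmox1, Txnrd1, Gclm and Srxn1, and lowered 0. In knockout mice it raised the same 4 together with Nfe2l2 and Gclc, and again lowered 0. Each comparison was tested with limma on log2(normalized count + 1) over all 14651 genes and called at a Benjamini-Hochberg adjusted p under 0.05. By this test 22.3% of all genes were higher in cold in control mice (46.0% changed in either direction), 21.4% in knockout mice (43.3%), and 17.3% in both genotypes. Of the calls in control mice 48.5% were higher, and 38.2% when libraries were scaled to their 75th percentile, which moved the median log2 change of all genes from -0.02 to -0.13. The median log2 change of the 10 members was 0.30 in control and 0.52 in knockout mice, against -0.02 in each for all genes. The 2 comparisons share no mice. Each mouse was a separate animal, so the p-values rest on the spread between mice. That spread was pooled over the 4 groups and drawn towards that of genes of like level.

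**Figure D1:**
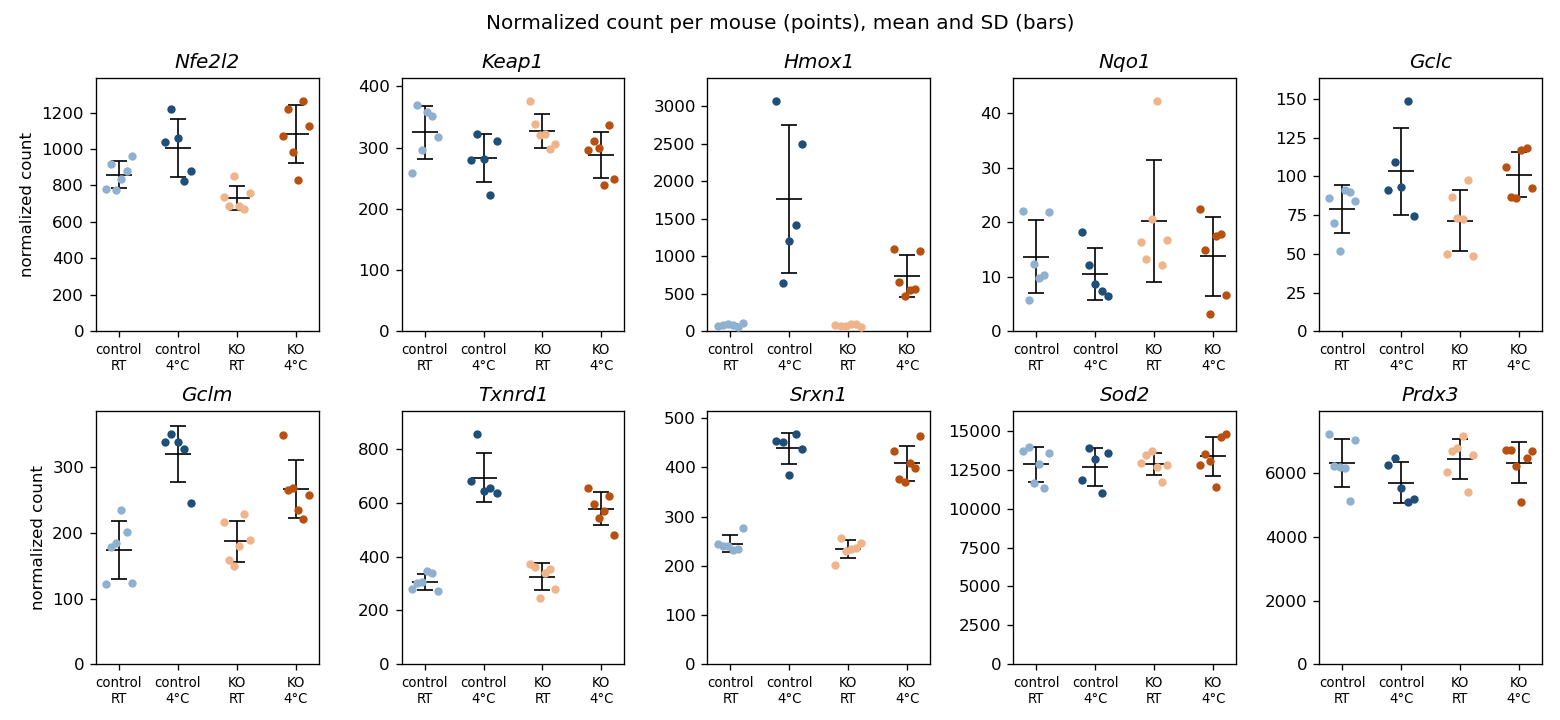
Normalized count of each of the 10 members (linear axes from 0) for every mouse, as points, in the 4 groups, with bars for the mean and SD. Hmox1, Txnrd1 and Srxn1 are higher in every mouse at 4°C than in any mouse of the same genotype at RT, while Keap1, Nqo1, Sod2 and Prdx3 overlap between all groups.

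Of the 2 regulators, Nfe2l2 rose in knockout mice and Keap1 was called in neither genotype. Nfe2l2 had a normalized count of 777 to 959 (median 858) in the 6 control mice at RT and of 1038, 1220, 1063, 823 and 882 in those at 4°C. It was 671 to 850 (median 715) in knockout mice at RT and 828 to 1261 (median 1099) at 4°C. The control groups overlapped, and 5 of 6 knockout mice at 4°C lay above all of those at RT. The log2 change by cold was 0.22 (SE 0.11, limma adjusted p = 0.101) in control mice, which did not pass the test, and 0.55 (SE 0.10, limma adjusted p = 9.6e-05) in knockout mice. With each mouse left out the value in control mice was 0.15 to 0.29, and it passed only without mouse 4 at 4°C (0.29, limma adjusted p = 0.0381). Over the other settings it was 0.07 (quantile normalization, limma adjusted p = 0.604) to 0.26 and did not pass. Keap1, the inhibitor, had means of 325 ± 42.7 and 283 ± 38.5 in control and of 327 ± 27.8 and 288 ± 37.4 in knockout mice at RT and 4°C (SD), with log2 changes of -0.20 (95% CI -0.43 to 0.04) and -0.19 (-0.41 to 0.04) that did not pass. Under scaling to the 75th percentile and under quantile normalization Keap1 passed in control mice, at -0.31 and -0.30.

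Hmox1 showed the largest change of the members in both genotypes. It encodes heme oxygenase 1, which opens the heme ring to biliverdin, carbon monoxide and iron, and is a target of NRF2 that the repressor BACH1 holds down. Its normalized count was 62.1 to 110 (median 80.5) at RT in control mice and 3060, 646, 1208, 1422 and 2492 in those at 4°C. In knockout mice it was 60.2 to 104 (median 79.9) at RT and 470 to 1092 (median 609) at 4°C. Every mouse at 4°C was far above every mouse at RT, and the mice at 4°C also differed widely among themselves. The mean rose 21.2-fold in control mice (log2 change 4.21, SE 0.29, limma adjusted p = 1.7e-11) and 9.08-fold in knockout mice (log2 change 3.11, SE 0.27, limma adjusted p = 1.3e-09). By the size of the log2 change Hmox1 ranked 42 in control and 94 in knockout mice among the 14651 genes. The SD of Hmox1 was 55.8% of its mean in control mice at 4°C and 21.7% at RT, whereas that of Srxn1 was 6.84% to 8.71% in the 4 groups.

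Thioredoxin reductase 1 and sulfiredoxin, which keep the thioredoxin and peroxiredoxin systems reduced, rose in both genotypes. Txnrd1, whose product passes electrons from NADPH to thioredoxin in the cytosol, was 271 to 345 (median 304) at RT in control mice and 680, 853, 643, 653 and 636 at 4°C, and 247 to 371 (median 346) and 481 to 654 (median 583) in knockout mice. The mean rose 2.26-fold in control mice (log2 change 1.17, SE 0.11, limma adjusted p = 5.1e-09) and 1.78-fold in knockout mice (log2 change 0.84, SE 0.11, limma adjusted p = 5.7e-07), with no overlap between temperatures in either. Srxn1, whose product repairs overoxidised peroxiredoxins and whose promoter above holds 2 ARE core matches before the start, was 232 to 278 (median 241) at RT in control mice and 453, 452, 385, 467 and 437 at 4°C. In knockout mice it was 203 to 257 (median 235) at RT and 371 to 465 (median 404) at 4°C. The log2 change was 0.84 in control (SE 0.09, limma adjusted p = 1.9e-08) and 0.80 in knockout mice (SE 0.08, limma adjusted p = 2.0e-08), and the temperatures did not overlap. Prdx3, the peroxiredoxin of the mitochondrial matrix, had means of 6331 ± 748 and 5708 ± 629 in control and 6446 ± 627 and 6332 ± 640 in knockout mice at RT and 4°C (SD). Its log2 changes of -0.15 (95% CI -0.35 to 0.05) and -0.03 (-0.22 to 0.16) did not pass the test. In control mice it passed at -0.26 under 75th percentile scaling and at -0.28 under quantile normalization.

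Gclc and Gclm encode the catalytic and the modifier subunit of glutamate-cysteine ligase, the rate-limiting enzyme of glutathione synthesis. Gclm was 122 to 235 (median 181) at RT in control mice and 338, 349, 337, 326 and 245 at 4°C, a 1.84-fold rise of the mean with no overlap (log2 change 0.90, SE 0.16, limma adjusted p = 5.1e-05). In knockout mice it was 149 to 229 (median 184) at RT and 221 to 348 (median 261) at 4°C, a 1.42-fold rise in which 1 of 6 cold mice fell within the range at RT (log2 change 0.51, SE 0.15, limma adjusted p = 0.00891). Gclc, at fewer reads, was 51.9 to 91.4 (median 85.1) at RT in control mice and 91.0, 109, 93.3, 148 and 74.6 at 4°C, and 48.4 to 97.6 (median 72.9) and 86.3 to 119 (median 99.2) in knockout mice. Its log2 change was 0.37 (SE 0.20, limma adjusted p = 0.126) in control and 0.53 (SE 0.19, limma adjusted p = 0.0240) in knockout mice. The call in knockout mice was lost without mouse 1 or 6 at RT (0.44 and 0.43) and without mouse 4 or 5 at 4°C (0.49 and 0.48), with an adjusted p of 0.0537 to 0.0728 (limma). The temperatures overlapped in both genotypes.

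Nqo1 and Sod2 passed the test in neither genotype. Nqo1, whose quinone reductase is often used to read NRF2 activity, was scarcely detected, with a mean normalized count of 13.7 ± 6.73, 10.6 ± 4.79, 20.2 ± 11.1 and 13.7 ± 7.30 (SD) in control at RT and 4°C and BAT-Mcu-KO at RT and 4°C. These levels rest on 2 to 47 reads per mouse, and the log2 changes by cold of -0.30 (95% CI -1.18 to 0.57) and -0.62 (-1.45 to 0.22), which the added count of 1 makes smaller at this level, did not pass. Sod2, the manganese superoxide dismutase of the matrix, had means of 12835 ± 1120, 12686 ± 1225, 12869 ± 701 and 13360 ± 1241 in the same order. Its log2 changes were -0.02 (95% CI -0.19 to 0.15) in control and 0.05 (-0.11 to 0.21) in knockout mice, so a change of Sod2 beyond these limits was not seen.

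**Figure D2:**
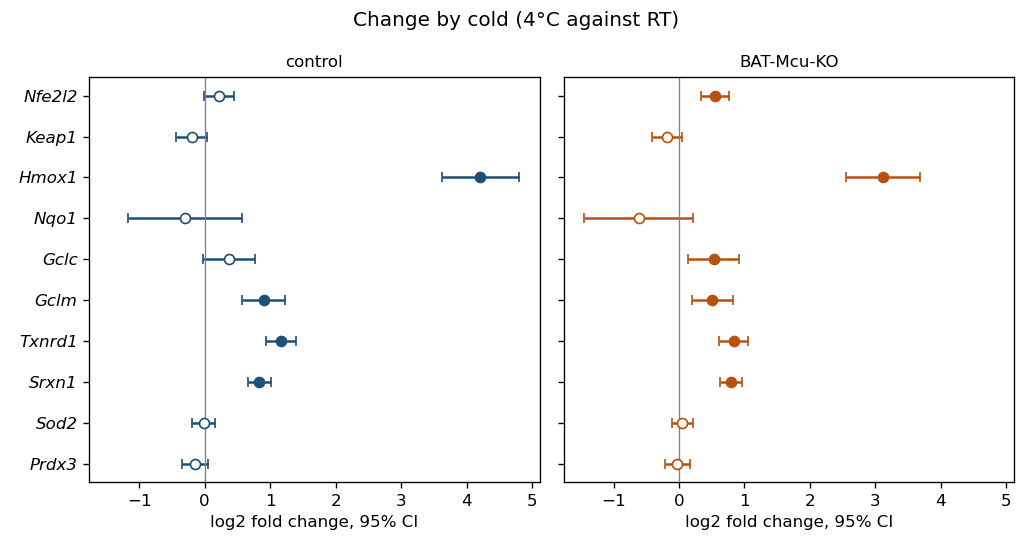
Log2 fold change by cold (4°C against RT) of each member in control and knockout mice, with 95% confidence intervals from limma. Filled points passed an adjusted p under 0.05. Hmox1 stands at 4.21 and 3.11, Txnrd1, Srxn1 and Gclm lie between 0.51 and 1.17, and Sod2 and Prdx3 sit at or near 0.

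The groups of mice did not overlap between temperatures for 4 members in control mice (25.2% of all genes) and for 3 in knockout mice (24.2%), Hmox1, Txnrd1 and Srxn1 in both and Gclm in control mice.

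The genotypes were compared next, to see whether the members differ between them. Only knockout mice carried the Cre transgene, so loss of Mcu and the transgene cannot be told apart in any comparison of genotype. At RT 0 of 10 members were called by limma (0.0478% of all genes), with 1, Nfe2l2, at an unadjusted p under 0.05 (5.15% of all genes), and 0 by edgeR or DESeq2. Nfe2l2 in knockout mice differed from control by -0.23 on the log2 scale (95% CI -0.44 to -0.02, unadjusted p = 0.0354, limma adjusted p = 0.940), and 5 of 6 lay below all control mice. Hmox1 differed by -0.04 (95% CI -0.61 to 0.52), Txnrd1 by 0.07 (-0.15 to 0.29), Srxn1 by -0.06 (-0.23 to 0.11), Gclm by 0.13 (-0.19 to 0.44) and Sod2 by 0.01 (-0.16 to 0.17). The genotypes overlapped for every member (0.218% of all genes had no overlap).

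At 4°C 0 of 10 members were called by limma (0.0751% of all genes), with 2, Hmox1 and Txnrd1, at an unadjusted p under 0.05 (6.98% of all genes). DESeq2 called 1, Hmox1, and edgeR 0. With means of 1766 ± 986 in control (n = 5) and 734 ± 276 in knockout mice (SD, n = 6), Hmox1 in knockout mice was at 0.416 of its level in control mice, a log2 difference of -1.14 (SE 0.29, 95% CI -1.73 to -0.55) with an unadjusted p of 0.000519 and an adjusted p of 0.253 (limma), the rank of 30 by p among all genes. Of the 6 knockout mice 3 lay below all control mice, and the lowest control mouse, at 646, lay among them. Over the other settings the log2 difference was -1.27 to -1.11 and the adjusted p 0.0407 (DESeq2) to 0.657 (limma with only the compared groups). With each mouse left out in turn it was -1.45 to -0.89, with a limma adjusted p of 0.0461 to 0.579, and it passed only without control mouse 2 at 4°C, the lowest (-1.45). Txnrd1 differed by -0.26 on the log2 scale (95% CI -0.49 to -0.03, unadjusted p = 0.0290, limma adjusted p = 0.675), with 5 of 6 knockout mice below all control mice. Gclm differed by -0.27 (95% CI -0.60 to 0.06), Nfe2l2 by 0.11 (-0.12 to 0.33), Prdx3 by 0.15 (-0.05 to 0.35) and Srxn1 by -0.10 (-0.28 to 0.08), and the genotypes overlapped for every member (0.683% of all genes had no overlap).

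Whether the response to cold differs between the genotypes was tested as the interaction of both factors. By limma 0 of 10 members were called (0% of all genes, 878 genes or 5.99% at an unadjusted p under 0.05), and 0 by edgeR or DESeq2, which called 0 and 8 of all genes. At an unadjusted p under 0.05 there were 3. The interaction of Hmox1 was -1.10 on the log2 scale, a smaller value in knockout mice (95% CI -1.92 to -0.28, unadjusted p = 0.0103, limma adjusted p = 0.780) and that of Txnrd1 -0.33 (-0.65 to -0.01, unadjusted p = 0.0417, adjusted p = 0.827), while that of Nfe2l2 was 0.33 (0.03 to 0.64, unadjusted p = 0.0336, adjusted p = 0.806). None of these passed, so the calls of Nfe2l2 and Gclc in knockout mice alone are not shown to differ between the genotypes. For Srxn1 the interaction was -0.04 (95% CI -0.28 to 0.21) and for Sod2 0.07 (-0.17 to 0.31).

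**Figure D3:**
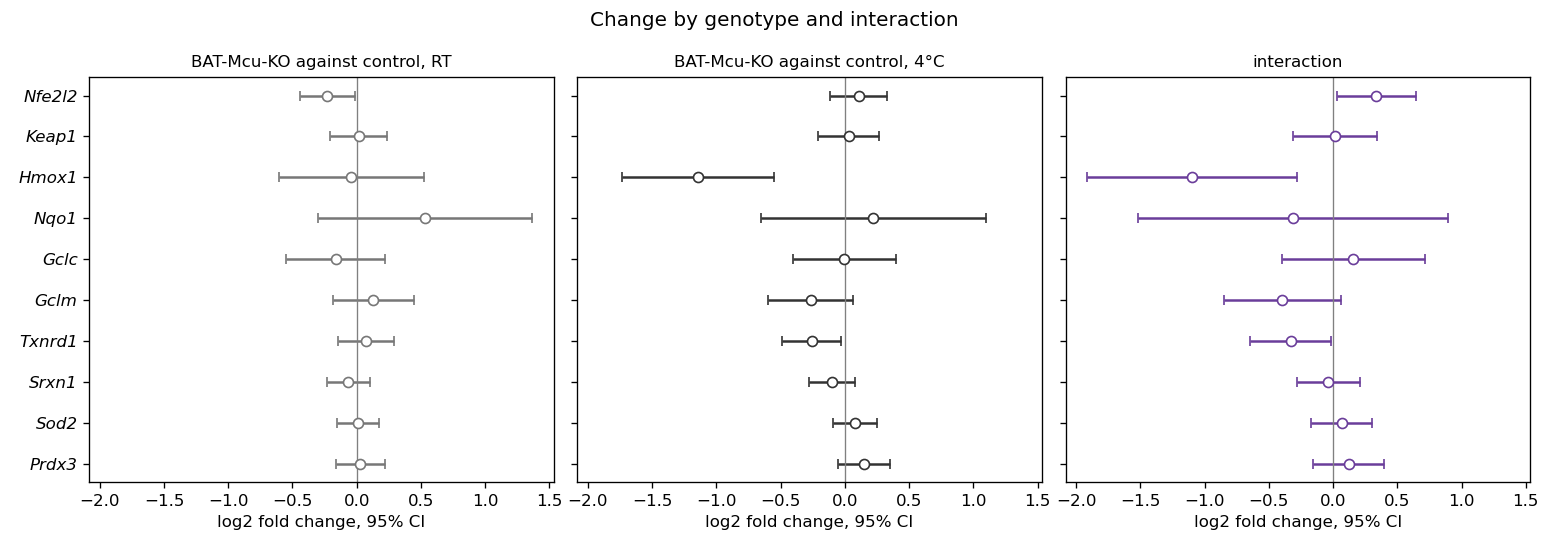
Log2 difference between the genotypes (BAT-Mcu-KO against control) at RT and at 4°C, and the interaction (change by cold in BAT-Mcu-KO minus that in control), for each member with 95% confidence intervals from limma. All points are open because none passed an adjusted p under 0.05, and the interval of Hmox1 at 4°C, -1.73 to -0.55, lies wholly below 0.

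Markers of other cells varied with Hmox1 among the mice at 4°C in part. Macrophages break down heme from red cells and use HMOX1 for it. In control mice at 4°C those with Hmox1 at 3060 and 2492 had summed counts of 8 macrophage markers of 1699 and 1590, and the other 3 mice, with Hmox1 at 646, 1208 and 1422, had 1231, 1223 and 1101, in the opposite order. In knockout mice at 4°C those with Hmox1 at 1092 and 1073 had sums of 1782 and 1808, and the other 4 had 1396 to 1561. The summed counts of 4 fibroblast markers were likewise highest in these mice, 4137 and 3311 against 2727 to 3062 in control and 3961 and 3619 against 2660 to 3501 in knockout mice. Those of 5 endothelial markers were not. In the mice with the most Hmox1 they were 6230 and 7664 against 5576 to 9764 in the other control mice. In knockout mice they were 6361 and 7069 against 5166 to 9121. At RT the macrophage sums were 658 to 1260 with Hmox1 at 60.2 to 110. Between the genotypes at 4°C the macrophage sums did not go with Hmox1, since knockout mice had the lower mean Hmox1 and sums of 1396 to 1808, against 1101 to 1699 in control mice, and 0 of the 8 markers were called by limma. Cd163, the hemoglobin scavenger receptor of macrophages, rose with cold by 1.17 and 0.90 on the log2 scale. C1qa (0.61 and 0.62) and C1qb (0.59 and 0.81) passed in both genotypes too, and Cd68, Mrc1 and Lyz2 in knockout mice only. Adgre1 (0.02 and 0.06) and Csf1r (0.05 and 0.22), also among the 8 markers, passed in neither. The 2 control mice with the most Hmox1 also had the highest summed counts of 7 brown adipocyte markers, 324780 and 320178 against 266177 to 289563 in the other 3, but the 2 knockout mice with the most Hmox1 had 306475 and 285503 among 279985 to 314737 in their group. Ucp1, itself higher in cold, made up much of these sums. It was 179020 and 198043 in those 2 control mice and 140888 to 160203 in the other 3. Of the 7 markers 3 rose and 3 fell with cold in control mice (22.3% and 23.7% of all genes). The summed counts of 5 red cell markers were 1885 to 6952 over all mice, and 0 of these markers were called in any comparison by limma, though 1 was lower by cold in control mice without mouse 1 at 4°C. The part of any of these cells in the rise of Hmox1 was not tested.

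**Figure D4:**
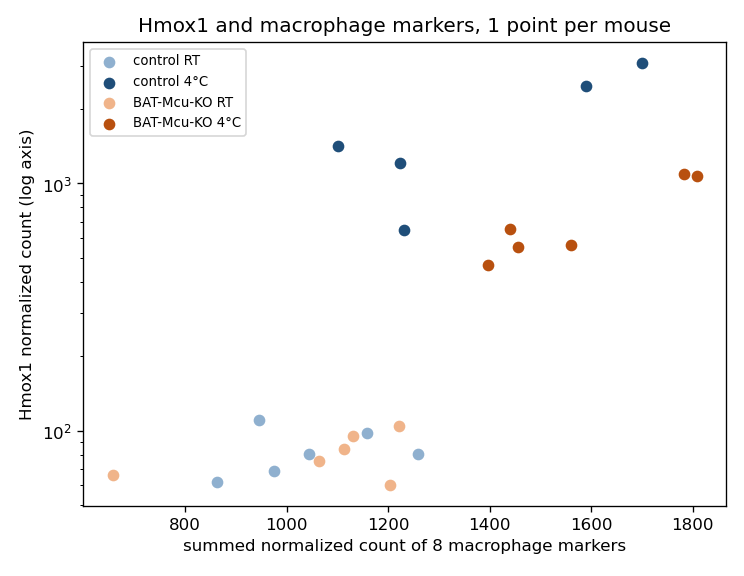
Normalized count of Hmox1 (log axis) against the summed normalized count of 8 macrophage markers, 1 point per mouse, coloured by group. Within each group at 4°C the 2 mice with the most Hmox1 have the highest sums, while the mice at RT all lie at 110 or below on the Hmox1 axis.

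Other genes of the pathway did not move as one with the 4 members that rose. The lists were of genes known for each role, and some genes stand in more than one. Of 29 other NRF2 targets measured, 3 rose, 21 fell and 5 did not pass in control mice, and 4 rose, 19 fell and 6 did not pass in knockout mice. Of all genes 22.3% and 21.4% were higher and 23.7% and 21.9% lower. Their median log2 change was -0.56 in control and -0.44 in knockout mice, against -0.02 for all genes, and the number that fell was 18 to 21 and 14 to 21 with each mouse left out in turn and 19 to 21 and 18 to 21 over the other settings. The number that rose was 2 to 3 and 2 to 4 with each mouse left out, the 2 in knockout mice without mouse 1 at 4°C, and 1 to 3 and 3 to 4 over the other settings. Cbr1, a carbonyl reductase, went from 860 ± 98.2 to 322 ± 28.3 in control mice (SD), a log2 change of -1.41, and changed by -1.08 in knockout mice. Aox1, an aldehyde oxidase, fell by 1.19 and 1.00 on the log2 scale. Abcc2, an export pump of conjugates, fell by 1.77 and 1.40 from a count of only 7.71 and 8.43 at RT. Osgin1, an oxidative stress-induced growth inhibitor, rose by 1.14 and 1.04. Chosen after their values were seen, the other genes that rose in control mice were Ftl1 (0.90), the light chain of ferritin, and Slc7a11 (1.88), the cystine carrier, the latter from 2.08 ± 0.767 to 11.05 ± 5.15 and with a value of 0.64 that did not pass in knockout mice. Fth1, the heavy chain of ferritin, also named after its values were seen, fell in control (-0.40) and knockout mice (-0.24).

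Partners and controllers of NRF2 moved both ways. In control and knockout mice 22.3% and 21.4% of all genes were higher and 23.7% and 21.9% lower. Of 15 partners and controllers, 7 rose, 3 fell and 5 did not pass in control mice, and 6 rose, 4 fell and 5 did not pass in knockout mice. The small MAF proteins, which pair with NRF2 or BACH1 on the ARE, were among those that rose. Maff went from 18.8 ± 6.82 to 79.6 ± 30.2 in control mice (SD), a log2 change of 2.03, and rose by 1.56 in knockout mice. Mafk rose by 1.39 and 1.42. Btrc, a subunit of another ligase that marks NRF2 for destruction, fell by 0.94 and 1.03 on the log2 scale, and Dpp3, a peptidase that can bind KEAP1, fell by 0.95 and 0.76.

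Among 16 other genes of glutathione synthesis and use, 3 rose and 7 fell in control mice and 1 rose and 3 fell in knockout mice (2 rose without mouse 1 at RT). The shares over all genes were 22.3% and 21.4% higher and 23.7% and 21.9% lower. Slc3a2, the heavy chain that the cystine carrier shares with other amino acid carriers, rose from 654 ± 121 to 5820 ± 1700 in control mice (SD), by 3.13 on the log2 scale, and by 2.93 in knockout mice. The glutathione peroxidases Gpx3 (-0.52 and -0.55) and Gpx4 (-0.49 and -0.34) and the cyclotransferase Chac2 (-0.69 and -0.49) fell in both genotypes. Chac1, the other cyclotransferase of the list, was named after its values were seen. It rose in control mice (1.81, limma adjusted p = 0.00147), and its value of -0.07 in knockout mice did not pass. The median of the list was -0.18 in control and -0.06 in knockout mice.

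Other mitochondrial antioxidant genes moved both ways. Of 16, 2 rose, 7 fell and 7 did not pass in control mice, and 2 rose, 8 fell and 6 did not pass in knockout mice, with medians of -0.23 in each. For comparison, 22.3% and 21.4% of all genes were higher and 23.7% and 21.9% lower. Ethe1, a persulfide dioxygenase, fell by 0.93 and 0.60 on the log2 scale. Oxr1, an oxidation resistance gene, fell by 0.71 and 0.72, Slc25a40, a carrier of the inner membrane, fell by 0.77 and 0.35, and Msrb2, a methionine sulfoxide reductase, fell by 0.70 and 0.45. The 2 that rose, named after their values were seen, were Txn2 (0.57 and 0.61), the thioredoxin that reduces PRDX3 in the matrix, and Slc25a39 (0.39 and 0.34), which carries glutathione into it.

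Among 14 cytosolic and secreted antioxidant genes 2 rose and 5 fell in control mice and 4 rose and 4 fell in knockout mice. Over all genes 22.3% and 21.4% were higher and 23.7% and 21.9% lower. Sesn2, a sestrin of the stress response, rose by 1.48 and 1.82 and Prdx6, a cytosolic peroxiredoxin, by 0.93 and 0.88. Ccs, which loads copper into superoxide dismutase 1, fell by 1.21 and 0.86 on the log2 scale and Sesn1 fell by 0.74 and 0.49. Cat, the catalase of peroxisomes, was the only gene of these lists called between the genotypes, at 4°C, where it was higher in knockout mice by 0.58 (limma adjusted p = 0.0354). Whether the call of Cat holds under the other settings was not tested. The number of all genes called in that comparison was 2 to 24 over those settings.

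The other genes of heme handling went both ways beside Hmox1. All 4 that were measured passed in both genotypes, in which 46.0% (control) and 43.3% (knockout) of all genes changed. Hmox2, the constitutive heme oxygenase, rose from 574 ± 74.1 to 1345 ± 159 in control mice (SD), by 1.23 on the log2 scale, and by 1.36 in knockout mice. The biliverdin reductases, which take up the next step, fell, Blvra by 0.65 and 0.50 and Blvrb by 0.86 and 0.76 on the log2 scale, and the heme transporter Slc48a1 fell by 0.68 and 0.55.

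**Figure D5:**
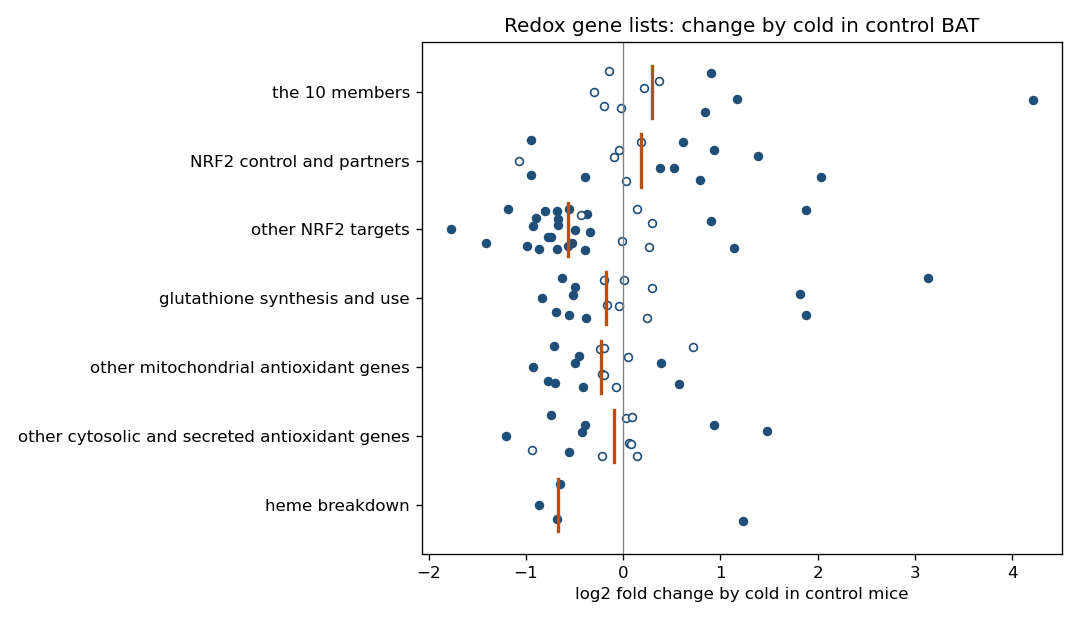
Log2 fold change by cold in control mice of the 10 members and of the genes of 6 lists, 1 point per gene, filled where an adjusted p under 0.05 was reached (limma), with the median of each list as a vertical bar. Of the other NRF2 targets 21 of 29 lie at the left among the filled points, and Hmox1 stands at the far right of the members, at 4.21.

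The genes most like the 3 members with the largest change by cold in control mice were found by Pearson's r of log2 values over the 23 mice of all 4 groups, so r includes the difference between temperatures, and it is given as a description. They were Slc7a6 (0.968), Tpcn2 (0.965) and Nup50 (0.965) for Hmox1, Golph3 (0.958), Zfp691 (0.957) and Chka (0.952) for Txnrd1, and Atf1 (0.900), Nipa2 (0.897) and Mtor (0.896) for Gclm.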

How the data were processed

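Libraries were made from the BAT of 23 mice with Smart-seq2, in which whole cDNA molecules are amplified by PCR. The authors aligned reads with STAR 2.4.0j to mm10 (GENCODE M7) and counted uniquely mapped exonic reads with HTSeq, irrespective of strand. They kept 14651 genes, those that reached 8 reads in 6 or more samples. The deposited signal is the normalized count, the reads divided by the DESeq2 size factor of the sample. This scaling assumes that most genes do not change. A second deposited table holds the authors' fold changes and p-values and was not used. Columns left unmapped numbered 0, and 19 symbols had been turned into dates.

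In 22 samples each value was a whole multiple of what 1 read is worth (100% of values within 0.01 reads), which gave the depth. In the sample of control mouse 6 at RT this could not be settled, and it was left out of the count tests only. PCR copies are not separate molecules, so read numbers cover counting error only.

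Groups came from the sample labels. limma (3.58.1, R 4.3.3) was fitted with a variance trend to log2(normalized count + 1) of all 23 samples and 4 group means. A fold change on this scale understates that of low genes. The 5 comparisons were cold in each genotype, genotype at each temperature, and the interaction, with Benjamini-Hochberg adjustment over 14651 genes and 95% confidence intervals. Alternatives were a pseudocount of 0.5 or 10, a mean of at least 50, 75th percentile scaling, quantile normalization, no trend, only the compared groups, the replicate number as a block, DESeq2 (1.42.0) and edgeR's quasi-likelihood test (4.0.16) on recovered reads, and leaving out each sample. Scripts were tested on simulated data. The members and lists were chosen with earlier results of these data known. Named were the 10 members, Mcu and Ucp1, from each list the 4 genes with the largest change by cold in control mice among those called in both genotypes in the same direction, any list gene called by genotype, and the 3 genes most correlated with each of the 3 members that changed most. Tables were handled with pandas 2.3.3 in Python 3.11.15 and figures drawn with matplotlib 3.10.9. Lengths and positions came from GENCODE M21.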

Additional observations from a re-analysis of the deposited data

Results flagged for a closer look

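Each member was checked in each of the 4 groups for a mouse that stood apart, by the gap to its nearest neighbour over the whole range of the group (Dixon's test at 95%). Of 40 checks 5 were past the critical value, and chance gives about 1 in 20. Nqo1 was highest in BAT-Mcu-KO mouse 4 at RT, at 42.1 against 20.7 in the next mouse. Gclm was lowest in control mouse 5 at 4°C, at 245 against 326. Txnrd1 was highest in control mouse 2 at 4°C, at 853 against 680, the mouse with the lowest Hmox1 of its group. Srxn1 was highest in control mouse 6 at RT, at 278 against 245. Prdx3 was lowest in BAT-Mcu-KO mouse 4 at 4°C, at 5088 against 6233. The values are normalized counts.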

How the results depend on the processing

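Members called by cold in control mice were 4 of 10 under every other setting run except 75th percentile scaling and quantile normalization, which added Keap1 and Prdx3 as lower, and 4 to 5 with each mouse left out. In BAT-Mcu-KO mice they were 6 under every other setting and 5 to 6 with each mouse left out. For genotype at 4°C the members called were 1 by DESeq2 (Hmox1) and 0 to 1 with each mouse left out, and the cause was not tested. Over all genes, those called by genotype at RT numbered 7, but 3 with only the compared groups, 4 by edgeR and 13 by DESeq2, and 5 to 8 with each mouse left out. By genotype at 4°C they numbered 11, but 7 without the trend, 2 with only the compared groups, 7 by edgeR and 24 by DESeq2, and 3 to 16 with each mouse left out. For the interaction they numbered 0, but 8 by DESeq2 and 0 to 1 with each mouse left out. Of the fold changes of members, some small values that did not pass changed sign. Under 75th percentile scaling these were Sod2 by cold in BAT-Mcu-KO mice (-0.00073), Keap1 (-0.014), Sod2 (-0.022) and Prdx3 (-4.8e-06) by genotype at RT, Gclc by genotype at 4°C (0.025) and the interaction of Srxn1 (0.019). Under quantile normalization they were Keap1 (-0.013) and Sod2 (-0.021) by genotype at RT, Gclc at 4°C (0.020) and the interaction of Srxn1 (0.00057), and by edgeR and DESeq2 Hmox1 by genotype at RT (0.059 and 0.055). With each mouse left out, the ranges that crossed 0 were, by cold, Sod2 in control (-0.054 to 0.032) and Prdx3 in BAT-Mcu-KO mice (-0.076 to 0.035). By genotype at RT they were Keap1 (-0.049 to 0.054), Hmox1 (-0.12 to 0.044), Sod2 (-0.029 to 0.034) and Prdx3 (-0.030 to 0.078), and at 4°C Gclc (-0.11 to 0.14) and Keap1 (-0.055 to 0.079). Those of the interaction were Keap1 (-0.070 to 0.077) and Nqo1 (-0.49 to 0.0053).

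Replicate numbers name different animals. The deviations of mice with the same number correlated at a mean of -0.029 and -0.0952 for cold in control and BAT-Mcu-KO mice. For genotype the means were -0.0355 at RT and 0.121 at 4°C, where the pairs ran from 0.0416 to 0.218. Whether mice of like number share more than the number was not tested. With a replicate block in the fit, 7 genes were called by genotype at 4°C in place of 11, Gclc at 4°C was 0.030, no call of a member changed, and at 4°C 2 of 5 mice correlated best with their own number. Depth limits Nqo1, and its printed intervals give the range of changes that the data do not exclude.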
